A study of Mus musculus with 21 samples.

Results

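The comparison described here sets the left ventricles of banded mice that received 20 min of vagus nerve stimulation a day from week 1 (VNS20_1w, 3 libraries) against those of banded mice with the same kind of device left off (AB_Implant, 3 libraries). The 6 libraries were taken by their labels from the 21 in the study, and all genes of the table were compared between them. Every mouse was a male C57BL/6 wild type, 8 weeks old at surgery, and every heart was taken 8 weeks after surgery. In the aortic banding model used in both groups, the ascending aorta is tied over a removable needle, which leaves a fixed narrowing against which the left ventricle must pump. AB_Implant mice had the stimulator, a biodegradable triboelectric nanogenerator that turns motion into current, placed 1 week after banding and never activated. VNS20_1w mice were stimulated at 4 µA and 2 Hz through cuffs on the left cervical vagus nerve for 7 weeks. The week of implantation is labelled for AB_Implant only, and whether any device was still whole at harvest is not given in the sources used here. The other groups, 3 libraries each, were sham surgery (Sham), banding without a device (AB), 10 min a day from week 1 (VNS10_1w) and 20 min a day from week 2 or 4 (VNS20_2w, VNS20_4w), and they serve below to place the values of the 6 libraries.

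A ventricle under pressure overload is known to turn on fetal and stretch-responsive genes, immediate early transcription factors, chaperones that refold damaged proteins, and matrix genes. The vagus nerve acts on the heart through acetylcholine and the muscarinic receptor M2, encoded by Chrm2, which opens potassium channels and lowers cyclic AMP, and it is also known to restrain inflammation. The comparison asks which transcripts differ after weeks of daily stimulation when the banding and the device are shared.

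Messenger RNA was counted per gene, and values are given as CPM, counts scaled to a common TMM-adjusted library size, always in the order of replicates 1, 2 and 3. The 6 libraries held 11577509 to 17374915 counts. The 13 mitochondrially encoded genes took 34.4% to 44.4% of the counts in AB_Implant and 39.7% to 55.3% in VNS20_1w. The libraries also differed in how counts depended on transcript length, with slopes of log2 CPM on log2 length of 0.0527, 0.0397 and 0.251 in AB_Implant and -0.0552, 0.426 and -0.220 in VNS20_1w, so that VNS20_1w replicate 2 stood apart. The tissue label was checked against Myl2, the ventricular myosin light chain, at 6313 to 20241 CPM in the 6 libraries, and Myl7, the atrial one, with means of 77.5 CPM in AB_Implant and 54.3 CPM in VNS20_1w. The summed level of 8 atrial markers, Nppa among them, was 6199, 2349 and 5326 CPM in AB_Implant and 1525, 813 and 1298 CPM in VNS20_1w. Most of it was Nppa, with means of 3723 CPM in AB_Implant and 642 CPM in VNS20_1w. The log2 fold changes (± SE) of Sln, Myl7 and Myl4 were -0.57 ± 2.18, -0.51 ± 2.13 and -0.57 ± 1.89. Of the 7 atrial markers tested, 0 passed an adjusted p of 0.05. The part of these markers in the results below was not tested. The labels call the libraries biological replicates, and p-values refer to the spread between them.

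Of 12100 genes tested, 56 (0.463%) passed an adjusted p of 0.05, 34 lower (0.281%) and 22 higher (0.182%) in VNS20_1w. The falls with the smallest adjusted p among genes with a proper symbol were those of Mrfap1, Hnrnpa0, Hspa1a, Cebpb and Hspa1b. The falls also held the chaperone Hsp90aa1, transcription factors such as Atf3, Maff and Jund, and the muscle genes Abra, Rcan1 and Flnc. Of the rises, 19 were transcripts of liver genes that were nearly absent from AB_Implant, and the other 3 were Nrp1, Irx4 and Alox12. In all 34 falls the 3 VNS20_1w values lay below the 3 AB_Implant values, against 6.67% of all genes tested, and in all 22 rises they lay above, against 5.76%. The genes were called on these same 6 libraries, so the separation is largely built in and is not further evidence. At an unadjusted p under 0.05 there were 572 lower (4.73%) and 489 higher (4.04%) genes. The median log2 fold change over all genes tested was 0.05, with 6730 positive and 5370 negative. The sign counts of gene lists below stand beside these. Because whole tissue was sequenced, fewer cells of a type and less RNA per cell cannot be told apart. In the fits that left out 1 of the 6 libraries, 6 of the 34 falls were called every time, namely Hspa1a, Hspa1b, Cebpb, Hnrnpa0, Mrfap1 and the predicted gene Gm9887. Of the 34 falls, 10, 31 and 6 stayed called without AB_Implant replicates 1, 2 and 3 in turn, and 15, 8 and 8 without VNS20_1w replicates 1, 2 and 3. Without AB_Implant replicate 1, 2 or 3 the count of called genes was 19, 101 or 12, and without VNS20_1w replicate 1, 2 or 3 it was 32, 28 or 29.

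**Figure D1:**
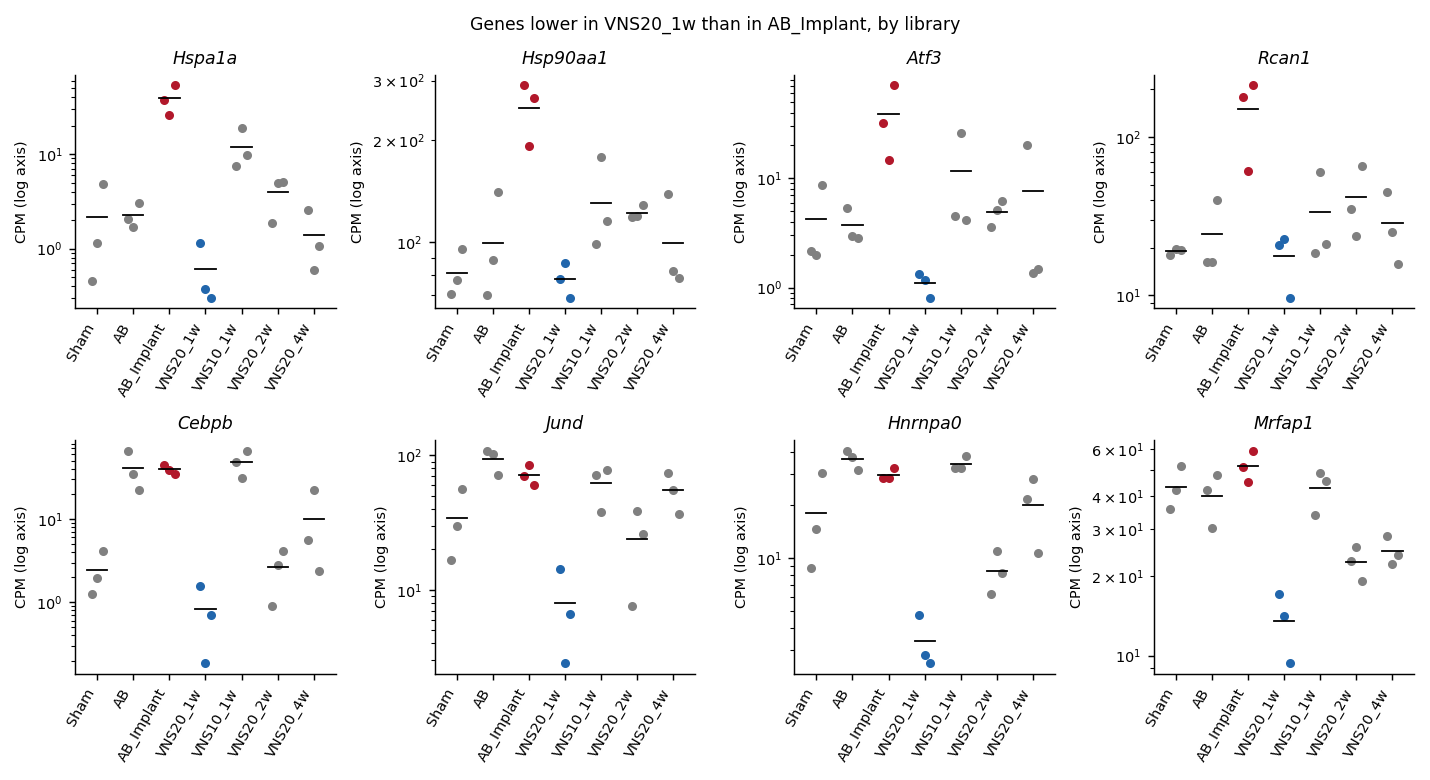
CPM on a log axis of 8 genes lower in VNS20_1w (blue) than in AB_Implant (red), with the other groups in grey; points are libraries and bars are means of 3. In the upper row AB lies nearer to VNS20_1w, and in the lower row nearer to AB_Implant, as for Cebpb, whose AB libraries held 22.3 to 65.8 CPM.

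Heat shock chaperones bind unfolded proteins, and the inducible ones are transcribed when heat shock factor 1 binds inverted GAA units in their promoters. The largest falls among them were those of the near-identical Hsp70 genes Hspa1a and Hspa1b. Hspa1a (ENSMUSG00000091971, GRCm38 chromosome 17, 34969190 to 34972156) was at 37.1, 25.9 and 53.4 CPM in AB_Implant and at 1.14, 0.374 and 0.302 CPM in VNS20_1w. The groups were far from overlapping, and Hspa1a fell by 5.94 ± 0.81 (log2 fold change ± SE, adjusted p = 0.00118). Hspa1b (ENSMUSG00000090877) was at 54.2, 33.5 and 66.9 CPM in AB_Implant and at 0.947, 0.436 and 1.21 CPM in VNS20_1w (-5.93 ± 0.93, adjusted p = 0.00534). The pair may share reads, and the predicted gene Gm20481, also called lower, lies wholly within Hspa1a exons on the opposite strand, so the 3 falls cannot be taken as separate. Leaving out 1 library at a time gave -6.79 to -5.64 for Hspa1a and -6.21 to -5.59 for Hspa1b, with adjusted p of at most 0.0377.

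The 250 bases before the RefSeq start were read (RefSeq promoter table, GRCm38.p6) and searched for a heat shock element of paired units, written as GAANNTTC or TTCNNGAA on both strands. A window was found for 27 of the 31 falls with a symbol of their own, and 7 of the 27 held the element, those of Hspa1a, Hspa1b, Hsph1, Rcan1, Ccn1, Cdkn1a and Nudt3. Some genes have several windows, and the Rcan1 window at chr16:92400079-92400328 lacked the element. Hsp90aa1 was among the falls without a window, so it was not searched. Counted by window, the element was in 8 of 36 windows of the falls (22.2%), 1 of 18 of the rises (5.56%) and 12.8% of all 32851. The windows of Hspa1a and Hspa1b are near copies and were counted separately. The longer element, in which the shorter motif is followed after any 2 bases by a further inverted unit (GAA after GAANNTTC, TTC after TTCNNGAA), was in 0 of the 36 and in 0.466% of all windows. A match describes the letters of the window and does not show binding. These 4 windows are shown because chaperone and stress genes among the falls carry the element there, in capitals, starting 104 bases before the start in Hspa1a and Hspa1b, 54 in Hsph1 and 107 in Rcan1. The windows are chr17:34972157-34972406 for Hspa1a, chr17:34959239-34959488 for Hspa1b, chr5:149636316-149636565 for Hsph1 and chr16:92466170-92466419 for Rcan1, all on the minus strand and written 5′ to 3′. Those of Hspa1a and Hspa1b differ at 3 of 250 bases.

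Hspa1a: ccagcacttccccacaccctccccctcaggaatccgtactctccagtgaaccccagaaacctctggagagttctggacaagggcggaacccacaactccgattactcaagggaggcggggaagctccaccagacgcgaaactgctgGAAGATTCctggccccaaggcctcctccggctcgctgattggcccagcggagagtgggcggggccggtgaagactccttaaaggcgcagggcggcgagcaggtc

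Hspa1b: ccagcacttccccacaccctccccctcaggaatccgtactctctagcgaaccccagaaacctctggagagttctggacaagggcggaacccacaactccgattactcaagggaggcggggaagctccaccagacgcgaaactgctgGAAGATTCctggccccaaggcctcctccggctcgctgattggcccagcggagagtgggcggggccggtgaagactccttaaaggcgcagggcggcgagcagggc

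Hsph1: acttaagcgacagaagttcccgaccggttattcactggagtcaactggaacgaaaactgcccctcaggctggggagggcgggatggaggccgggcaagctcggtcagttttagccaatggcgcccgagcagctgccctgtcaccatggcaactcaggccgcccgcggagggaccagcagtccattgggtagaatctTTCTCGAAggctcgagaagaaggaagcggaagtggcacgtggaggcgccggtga

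Rcan1: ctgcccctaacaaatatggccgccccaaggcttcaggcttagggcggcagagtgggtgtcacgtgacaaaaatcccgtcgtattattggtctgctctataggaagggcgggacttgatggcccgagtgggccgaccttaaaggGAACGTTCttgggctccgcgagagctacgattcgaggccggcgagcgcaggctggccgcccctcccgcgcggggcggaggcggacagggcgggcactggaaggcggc

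Hsp90aa1, the inducible cytosolic Hsp90 (chromosome 12, 110690605 to 110702728), was at 290, 192 and 266 CPM in AB_Implant and at 77.9, 87.1 and 68.6 CPM in VNS20_1w (-1.68 ± 0.28, adjusted p = 0.00917). Hsph1, the Hsp110 exchange factor for Hsp70, was at 91.8, 59.1 and 73.6 CPM against 23.9, 26.9 and 18.6 CPM (-1.69 ± 0.32, adjusted p = 0.0195). The fitted ratio was 3.21-fold lower for Hsp90aa1 and 3.23-fold lower for Hsph1, and the groups did not overlap in either. Serpinh1, the collagen chaperone of the endoplasmic reticulum, fell from 187, 127 and 122 CPM to 75.6, 67.8 and 67.9 CPM (-1.05 ± 0.23, adjusted p = 0.0463). Of the 24 heat shock chaperones listed and tested, 4 fell, 0 rose and 23 had a negative fold change, with a median of -0.53. Among all 12100 genes tested, 34 fell (0.281%) and 5370 had a negative fold change. The small chaperone Hspb1 was at 685, 398 and 526 CPM against 119, 39.4 and 139 CPM (-2.43 ± 0.56, adjusted p = 0.0652), and the Hsp70 partner Dnaja1 at 91.2, 94.8 and 87.4 CPM against 37.4, 37.3 and 42.4 CPM (-1.22 ± 0.30, adjusted p = 0.0859). Neither passed, although neither overlapped between the groups. The count of 4 was 2 to 4 when 1 library was left out. Hsp90aa1 lost its call without VNS20_1w replicate 3 or AB_Implant replicate 1 or 3 (adjusted p up to 0.0662), and Hsph1 and Serpinh1 were called only without AB_Implant replicate 2 (up to 0.14 and 0.316 otherwise).

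Immediate early genes and stress-induced transcription factors formed the next group of falls. Atf3, a factor of the integrated stress response, was at 31.9, 14.7 and 71.1 CPM in AB_Implant and at 1.33, 1.18 and 0.806 CPM in VNS20_1w (-5.12 ± 1.07, adjusted p = 0.0396). Maff, a small Maf protein, was at 9.65, 2.57 and 9.28 CPM against 0.253, 0.436 and 0.705 CPM (-3.98 ± 0.72, adjusted p = 0.0128). AB_Implant replicate 2 was the lowest of its group for both genes and still above every VNS20_1w library. Jund, an AP-1 subunit, was at 70.9, 84.2 and 60.1 CPM against 14.4, 2.87 and 6.65 CPM (-3.16 ± 0.60, adjusted p = 0.0186). Ccn1, a secreted matricellular protein induced by stretch and growth factors, was at 121, 49.8 and 196 CPM against 33.9, 25.2 and 26.4 CPM (-2.10 ± 0.37, adjusted p = 0.0102). Ier5, which is known to bind heat shock factor 1, was at 19.5, 34.3 and 36.8 CPM against 7.83, 7.54 and 4.33 CPM (-2.19 ± 0.44, adjusted p = 0.0303). These were 5 of 26 immediate early genes tested, 24 of which had a negative fold change (median -1.25). Ccn2, the close relative of Ccn1, did not pass at 126, 60.4 and 308 CPM against 32.4, 31.1 and 12.3 CPM (-2.70 ± 0.63, adjusted p = 0.0652). The 5 calls depended on single libraries, and 0 were left without VNS20_1w replicate 2 or AB_Implant replicate 3, 1 without VNS20_1w replicate 3, and 2 without replicate 1 of either group.

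Single members of other stress lists fell as well. Nfil3, a repressor in the circadian clock and in immune cells, was at 57.4, 22.9 and 61.9 CPM against 9.03, 6.35 and 12.3 CPM (-2.37 ± 0.45, adjusted p = 0.0195), the 1 fall among 19 clock genes. Cdkn1a, which encodes the cell cycle inhibitor p21, was at 61.7, 17.5 and 48.7 CPM against 5.94, 3.80 and 3.02 CPM (-3.31 ± 0.66, adjusted p = 0.0274), the 1 fall among 17 cell cycle arrest and p53 genes, whose median was -0.08. Srxn1, which repairs oxidised peroxiredoxins, was at 5.46, 3.93 and 6.55 CPM against 1.01, 1.56 and 0.605 CPM (-2.30 ± 0.42, adjusted p = 0.0157), the 1 fall among 21 NRF2 targets (median -0.09). Each of these lists thus had 1 member called and a median near that of all genes or, for the clock, above it at 0.29. Of the 19 clock genes, 13 had a positive and 6 a negative fold change. Arntl was at -3.83 ± 1.05 (adjusted p = 0.159), Ciart at 1.58 ± 0.67 (adjusted p = 0.478) and Dbp at 1.37 ± 0.67 (adjusted p = 0.589). Gdf15, a stress-induced cytokine, was at 17.0, 2.80 and 26.8 CPM against 1.83, 0.934 and 0.907 CPM without passing (-3.64 ± 0.99, adjusted p = 0.154). In the fits without 1 library, Cdkn1a was called only without AB_Implant replicate 2 (adjusted p up to 0.173 otherwise). Nfil3 lost its call without AB_Implant replicate 1 or 3 or VNS20_1w replicate 1 or 2 (up to 0.12), and Srxn1 without replicate 1 or 3 of either group (up to 0.107).

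Among the 19 fetal and hypertrophy genes tested, 3 fell, 0 rose, and all 19 had a negative fold change, with a median of -1.61. Abra, an actin-binding activator of serum response factor signalling in striated muscle (chromosome 15, 41864076 to 41869720), was at 460, 128 and 635 CPM in AB_Implant and at 43.2, 29.0 and 40.3 CPM in VNS20_1w (-3.44 ± 0.70, adjusted p = 0.0312). Rcan1, a calcineurin regulator whose transcription calcineurin itself raises (chromosome 16, 92391953 to 92470867), was at 179, 61.3 and 212 CPM against 20.9, 22.8 and 9.67 CPM (-3.08 ± 0.59, adjusted p = 0.0195). Flnc, the actin crosslinker of the Z-disc, was at 744, 327 and 866 CPM against 217, 229 and 187 CPM (-1.61 ± 0.35, adjusted p = 0.0463). By the fitted ratios Abra was 10.9-fold, Rcan1 8.44-fold and Flnc 3.06-fold lower, and in all 3 AB_Implant replicate 2 lay well below the other AB_Implant libraries. Each was called only when that library was left out, among the 6 fits without 1 library. Without AB_Implant replicate 2, 6 of the 19 were called, and without any other of the 6 libraries 0 were, with adjusted p up to 0.154 for Abra, 0.14 for Rcan1 and 0.255 for Flnc. Rcan1 was the 1 fall among 18 calcineurin and NFAT genes (median -0.19).

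The classic markers of the hypertrophied ventricle did not pass. Nppa, atrial natriuretic peptide, was at 5398, 1319 and 4453 CPM in AB_Implant and at 805, 232 and 888 CPM in VNS20_1w (-2.54 ± 0.79, adjusted p = 0.239). Nppb, brain natriuretic peptide, was at 1755, 679 and 1418 CPM against 483, 215 and 494 CPM (-1.69 ± 0.78, adjusted p = 0.54). For both peptides the 3 VNS20_1w values lay below the 3 AB_Implant values, with AB_Implant replicate 2 nearest to them. Acta1, skeletal actin, was at 11163, 1650 and 6970 CPM against 2876, 670 and 768 CPM (-2.20 ± 0.88, adjusted p = 0.421), with overlap. Myh7, the fetal myosin, overlapped fully at 1505, 504 and 2720 CPM against 1276, 1094 and 933 CPM (-0.52 ± 0.51, adjusted p = 0.929). Myh6 was at 11919, 14738 and 10580 CPM against 13980, 18605 and 15046 CPM (0.36 ± 0.23, adjusted p = 0.758), and 0 of 14 adult sarcomere genes passed (median 0.24). Xirp1, a Z-disc and intercalated disc repair protein, was the nearest of the others at 253, 143 and 537 CPM against 49.4, 85.5 and 48.3 CPM (-2.35 ± 0.55, adjusted p = 0.0652).

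Of 36 matrix genes, 1 passed, the collagen chaperone Serpinh1, while 35 had a negative fold change and the median was -0.78. That call was lost with length and GC offsets (adjusted p = 0.0592), at a mean of at least 5 CPM (adjusted p = 0.0531) and in a fit of the 2 groups alone (adjusted p = 0.259). The summed level of the 36 was 3854, 1861 and 3440 CPM in AB_Implant and 2335, 1762 and 1810 CPM in VNS20_1w, so AB_Implant replicate 2 lay within the VNS20_1w range. Col1a1, the main fibrillar collagen chain, was at 178, 42.3 and 113 CPM against 76.5, 41.9 and 54.4 CPM (-0.95 ± 0.45, adjusted p = 0.576), and Col3a1 at 313, 74.3 and 212 CPM against 126, 88.8 and 113 CPM (-0.87 ± 0.49, adjusted p = 0.671). AB_Implant replicate 2 lay within the VNS20_1w range for Col1a1 and below it for Col3a1. Postn, the periostin of activated fibroblasts, was at 206, 20.4 and 320 CPM against 44.3, 35.9 and 20.8 CPM (-2.43 ± 0.76, adjusted p = 0.243), and Timp1, a metalloproteinase inhibitor, had a log2 fold change of -1.97 ± 0.90 (adjusted p = 0.532). Of 25 matricellular and fibroblast activation genes, Ccn1 was the 1 fall (median -1.12). Markers of resident fibroblasts were at summed levels of 1777, 1392 and 1815 CPM in AB_Implant and 1821, 1027 and 1636 CPM in VNS20_1w, and 0 of 10 were called.

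**Figure D2:**
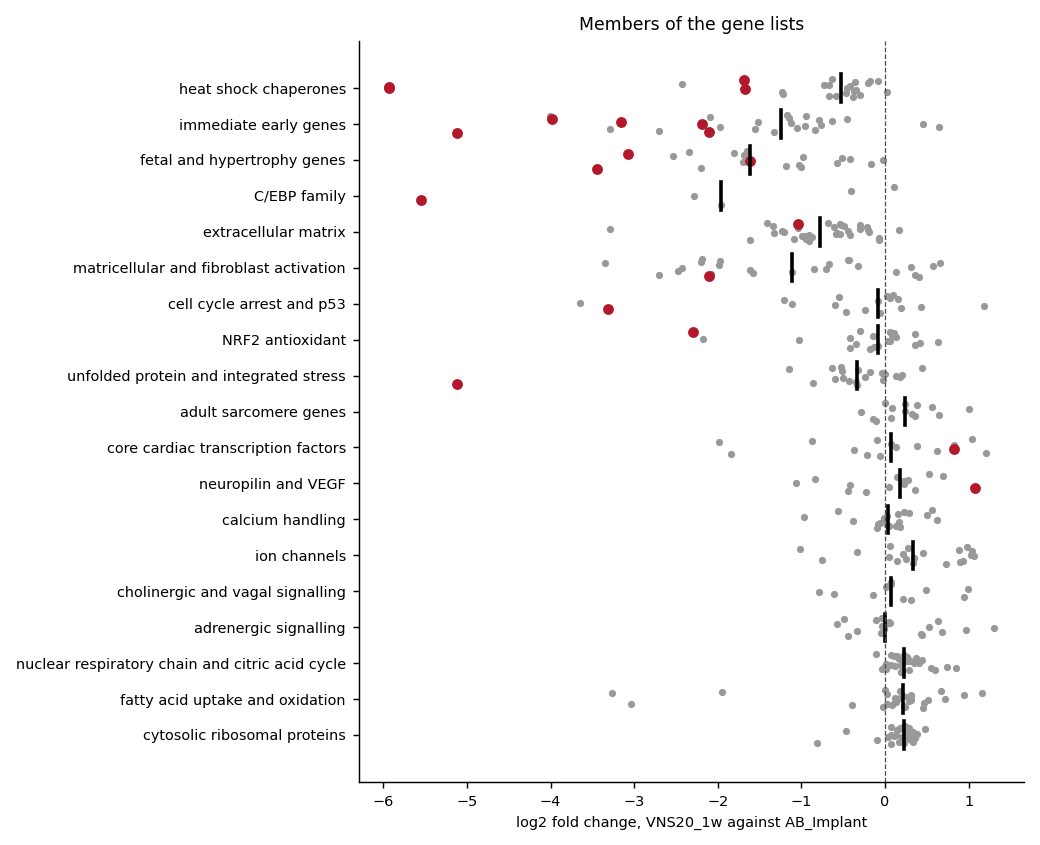
Log2 fold changes of VNS20_1w against AB_Implant for the tested members of 19 gene lists; each point is a gene, red points are called genes, and black bars are list medians. The medians of fetal and hypertrophy genes (-1.61) and immediate early genes (-1.25) lie left of 0, while those of metabolic and ribosomal lists lie just right of it.

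The remaining falls were of genes with no role in common on the lists, several of them GC-rich. Cebpb, a C/EBP transcription factor induced by cytokines and stress (chromosome 2, 167688915 to 167690418), was at 44.8, 38.9 and 34.7 CPM in AB_Implant and at 1.58, 0.187 and 0.705 CPM in VNS20_1w, 47.0-fold lower (-5.55 ± 0.85, adjusted p = 0.00453). It was the 1 fall among 5 C/EBP genes, and Cebpd, its acute-phase relative, was at 55.2, 24.5 and 50.5 CPM against 11.7, 5.42 and 9.67 CPM (-2.28 ± 0.52, adjusted p = 0.0612). Hnrnpa0, an RNA-binding protein that stabilises stress transcripts (chromosome 13, 58125879 to 58128556), was at 28.4, 28.7 and 32.6 CPM against 4.74, 2.80 and 2.52 CPM (-3.14 ± 0.41, adjusted p = 0.000992). Both groups were tight for Hnrnpa0, with an SD of 2.31 CPM in AB_Implant and 1.21 CPM in VNS20_1w. Mrfap1, a nuclear partner of Morf4l1, had the smallest p of the falls and was at 51.4, 45.1 and 59.4 CPM against 17.1, 14.1 and 9.37 CPM (-1.94 ± 0.24, adjusted p = 0.000571). Leaving out 1 library at a time kept the adjusted p of Cebpb at or under 0.029, of Hnrnpa0 at or under 0.013 and of Mrfap1 at or under 0.00533.

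Scand1, a SCAN domain protein, was at 21.3, 25.0 and 16.0 CPM against 0.505, 0.125 and 1.01 CPM (-5.35 ± 1.06, adjusted p = 0.0274). Nudt3, a hydrolase of inositol pyrophosphates, was at 5.32, 7.56 and 10.1 CPM against 0.632, 0.125 and 0 CPM (-4.76 ± 0.83, adjusted p = 0.0102). Pabpn1, the nuclear poly(A) binding protein, was at 6.59, 7.56 and 6.21 CPM against 0.379, 1.31 and 1.31 CPM (-2.78 ± 0.52, adjusted p = 0.0185). In all 3 the VNS20_1w libraries held at most 1.31 CPM. Further falls were the zinc finger gene Zfp771 (-3.26 ± 0.70, adjusted p = 0.046), the histone variant H2afx (-3.19 ± 0.69, adjusted p = 0.0463), Zfp593 (-2.42 ± 0.51, adjusted p = 0.0406), Tmem238 (-4.80 ± 1.01, adjusted p = 0.0406) and Rtn4rl2, a Nogo receptor relative (-2.41 ± 0.52, adjusted p = 0.046). The last were Dact3, a Wnt pathway inhibitor (-2.29 ± 0.48), the Rac exchange factor Tiam2 (-2.12 ± 0.42), the calcium-binding Efhd2 (-1.70 ± 0.35) and Ifrd1 (-1.32 ± 0.28), with adjusted p from 0.0274 to 0.046. Zfp771 was called in none of the fits without 1 library (adjusted p up to 0.197), and Scand1 and Pabpn1 in 1 each, with adjusted p up to 0.153 and 0.107.

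Transcripts of 10 of the 34 falls (29.4%) were at least 60% GC, against 3.94% of the genes tested, and the median GC content was 56.9% in the falls, 46.4% in the rises and 50.4% in all genes tested. The falls were also short, with a median length of 2519 bases against 4485. Slopes of log2 CPM on GC percent were -0.00604, -0.00800 and -0.0293 in AB_Implant and -0.00213, -0.0527 and 0.00846 in VNS20_1w. These 2 groups overlapped on that measure. The groups set beside them below had slopes of 0.0445, 0.0324 and -0.00875 in AB and 0.0172, -0.0395 and -0.00115 in VNS10_1w. In Sham the slopes were -0.0219, 0.00105 and 6.56e-05. With offsets for length and GC content in the fit, 49 of the 56 genes were called, among 107 in all. Exons of 12 of the 56 overlap another gene of the table, 10 of them on the opposite strand, and the strand setting of the counting is not given in the sources used here. Among these are Cebpb, where Tmem189 covers 20.7% of the exon bases, Scand1 (40.4%, Cnbd2), Zfp593 (77.9%), Pabpn1 (21.4%, same strand) and Nudt3 (9.03%, same strand), and their counts may be split.

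The 34 falls were sorted by which of the 2 groups the banded hearts without a device lay nearer to. Such a rule can only give 2 sets, and the same count over all genes tested was not made. On the scale of log2(mean CPM + 0.5), the AB mean lay nearer to VNS20_1w for 18 of the 34 and nearer to AB_Implant for 16. The first set held, among others, the chaperones, Atf3, Maff, Abra, Rcan1, Flnc, Cdkn1a, Nfil3, Ccn1 and Srxn1. For Hspa1a the AB libraries spanned 1.68 to 3.04 CPM, so VNS20_1w lay below AB by 1.85 without passing (adjusted p = 0.974), and for Rcan1 they spanned 16.4 to 40.3 CPM, around the VNS20_1w values (-0.45, adjusted p = 0.974). Against AB itself, AB_Implant was higher for Hspa1a by 4.08 (adjusted p = 0.12) and for Rcan1 by 2.63 (adjusted p = 0.23). AB_Implant against AB gave 0 called genes with edgeR, where 1099 of the 12100 tested had an unadjusted p under 0.05, and 70 called genes with DESeq2. The comparisons share libraries, so they are given side by side and not as separate evidence.

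The second set held Cebpb, Jund, Hnrnpa0, Scand1, Nudt3, Pabpn1, Zfp771, H2afx, Mrfap1, Tmem238, Dact3, Ier5, Zfp593, Rtn4rl2, Gm9887 and BC029722. For Cebpb the AB libraries spanned 22.3 to 65.8 CPM and for Hnrnpa0 31.7 to 41.0 CPM, beside 34.7 to 44.8 and 28.4 to 32.6 CPM in AB_Implant. VNS20_1w was lower than AB for Cebpb (-5.61, adjusted p = 0.00511), Hnrnpa0 (-3.44, adjusted p = 0.000682) and Mrfap1 (-1.57, adjusted p = 0.00511). The same held for Jund (-3.56, adjusted p = 0.014), Nudt3 (-4.80, adjusted p = 0.0158) and Scand1 (-6.08, adjusted p = 0.017). The set was sorted by these same AB means, so the direction was built in and these values are not separate evidence. In all, 35 genes (0.289%) were called between VNS20_1w and AB, 20 lower and 15 higher. That count was 19, 10 and 15 without VNS20_1w replicates 1, 2 and 3 in turn, and 11, 15 and 20 without AB replicates 1, 2 and 3. Sham hearts were low in Cebpb, at 1.24 to 4.11 CPM, and VNS20_1w did not pass against Sham (-1.56, adjusted p = 1.00), whereas Hnrnpa0 (-2.41, adjusted p = 0.013) and Mrfap1 (-1.67, adjusted p = 0.0033) were lower in VNS20_1w than in Sham too. Against Sham, 5 genes were lower (0.0413%) and 16 higher (0.132%) in VNS20_1w, and 6 were lower (0.0496%) and 28 higher (0.231%) in AB_Implant.

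**Figure D3:**
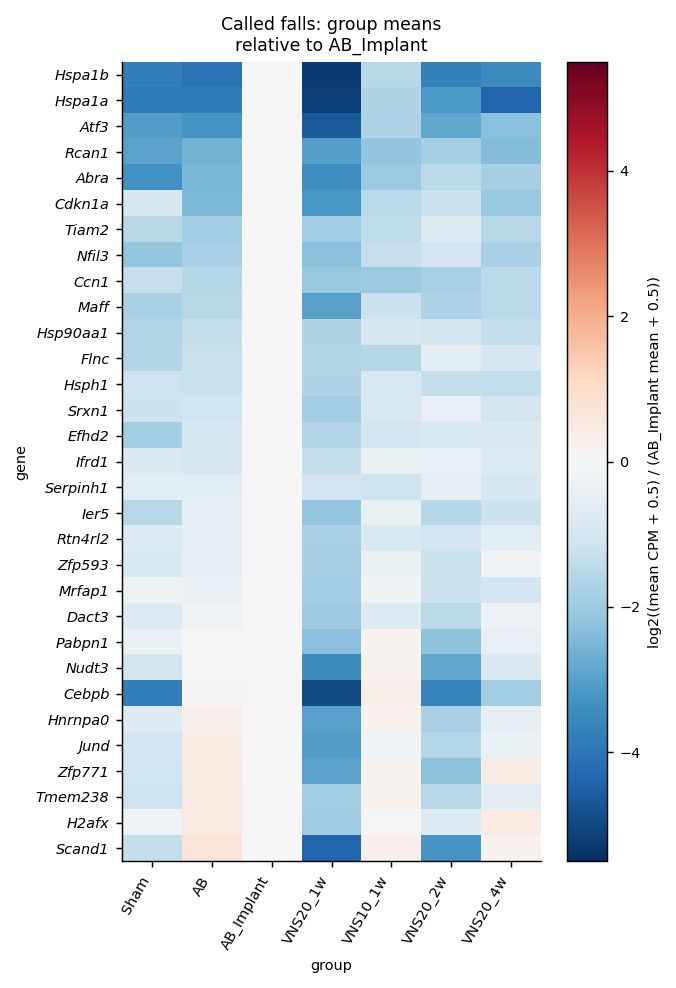
Group means of the 31 named falls as log2((mean CPM + 0.5) / (AB_Implant mean + 0.5)); rows are genes ordered by the AB value, and blue is lower than AB_Implant. Upper rows such as Hspa1b are blue in AB and Sham as in VNS20_1w, lower rows such as Scand1 are near white in AB and VNS10_1w, and VNS20_1w is blue throughout.

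Apart from liver genes, 3 transcripts rose. Nrp1, neuropilin 1, a receptor for semaphorin 3 and a co-receptor for VEGF (chromosome 8, 128358604 to 128503363), was at 30.3, 30.3 and 27.9 CPM in AB_Implant and at 55.5, 69.3 and 62.4 CPM in VNS20_1w, 2.12-fold higher (1.08 ± 0.18, adjusted p = 0.00735). Irx4, a homeobox factor of the ventricle (chromosome 13, 73260479 to 73269608), was at 14.1, 15.3 and 11.8 CPM against 25.1, 19.8 and 27.9 CPM (0.82 ± 0.17, adjusted p = 0.042). Alox12, the platelet-type 12-lipoxygenase (chromosome 11, 70241457 to 70255353), was at 1.40, 1.59 and 1.78 CPM against 5.24, 3.36 and 8.26 CPM (1.81 ± 0.38, adjusted p = 0.042). For all 3, AB lay at or near the VNS20_1w level. The AB libraries spanned 55.2 to 57.6 CPM for Nrp1, 27.5 to 30.4 CPM for Irx4 and 4.30 to 5.82 CPM for Alox12, and VNS20_1w did not pass against AB for any of them (adjusted p 0.974 to 0.98). Nrp1 lost its call without AB_Implant replicate 3 (adjusted p = 0.0692), with length and GC offsets (adjusted p = 0.054) and in a fit of the 2 groups alone (adjusted p = 0.117). In that last fit Irx4 (adjusted p = 0.399) and Alox12 (adjusted p = 0.282) were not called either, and Irx4 was not called without a filter (adjusted p = 0.0814). Irx4 and Alox12 were called in 2 and 1 of the 6 fits without 1 library, with adjusted p up to 0.249 and 0.228.

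**Figure D4:**
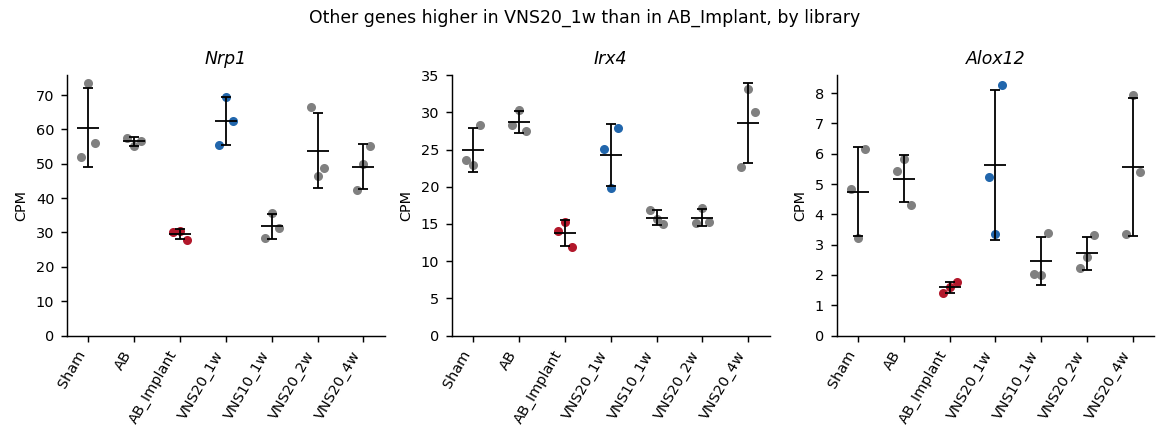
CPM of Nrp1, Irx4 and Alox12 by library, with the mean and SD of 3 libraries; AB_Implant is red and VNS20_1w blue. For Nrp1 the VNS20_1w libraries (55.5 to 69.3 CPM) sit beside Sham and AB, and VNS10_1w sits beside AB_Implant.

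The neuropilin and VEGF list had no other call among 14 tested (median 0.18), and Vegfa was at 133, 137 and 161 CPM against 75.4, 112 and 53.9 CPM (-0.83 ± 0.34, adjusted p = 0.454). Among 15 cardiac transcription factors Irx4 was the 1 call (median 0.07). Nkx2-5, a core factor of heart muscle, was at 37.1, 34.3 and 27.6 CPM against 10.7, 4.67 and 9.77 CPM and just missed the threshold (-1.98 ± 0.45, adjusted p = 0.0652), and it passed against AB (-2.63, adjusted p = 0.017). Hand2, a basic helix-loop-helix factor of the heart, was at 76.4, 48.3 and 52.2 CPM against 17.1, 8.16 and 24.3 CPM (-1.84 ± 0.43, adjusted p = 0.0667).

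The other 19 rises were of genes that the liver is known to transcribe, all with a mean under 0.1 CPM in AB_Implant. Alb, serum albumin (chromosome 5), was at 0, 0.0756 and 0.0414 CPM in AB_Implant and at 37.9, 30.8 and 17.6 CPM in VNS20_1w (adjusted p = 0.00013). Its summed counts of 1269 against 2 give a ratio of 795 (95% counting interval 220 to 6571). Cyp3a11, a liver cytochrome P450, was at 0 in the 3 AB_Implant libraries and at 16.1, 9.34 and 5.64 CPM in VNS20_1w, at least 193-fold higher against a floor of 3 counts over the group (adjusted p = 0.00118). Gc, the vitamin D binding protein, was at 0, 0 and 0.0414 CPM against 5.87, 5.36 and 4.94 CPM, a ratio of 286 (50.8 to 11332, adjusted p = 6.62e-05, the smallest of the comparison). Fabp1, the liver fatty acid binding protein, was at 0 against 6.06, 8.78 and 2.12 CPM, at least 108-fold higher (adjusted p = 0.00406). Intervals and floors cover counting error only.

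The same set held other plasma proteins, enzymes and transporters. Apoa1, the main apolipoprotein of HDL, had a ratio of 160 (28.3 to 6383), and Apob, that of LDL, a ratio of 93.3 (25.4 to 778). Kininogen (Kng1) was at least 19.6-fold, the fibrinogen chain Fgb at least 32.2-fold, Ambp at least 23.8-fold and plasminogen (Plg) at least 17.1-fold higher, all at 0 counts in AB_Implant. Among enzymes, Cyp2c29 had a ratio of 497 (88.8 to 19695), Cyp4a10 was at least 124-fold, Cyp4a14 at least 92.7-fold, Cyp3a25 at least 16.7-fold and the peroxisomal thiolase Acaa1b at least 62.2-fold higher. The cytochrome families and Acaa1b have close copies whose reads may be shared. The urea cycle enzyme Cps1 was at least 13.4-fold, Hsd17b13 of the lipid droplet at least 21.7-fold and Azgp1 at least 15.5-fold higher, and the fatty acid transporter Slc27a2 had a ratio of 94.0 (16.4 to 3760). Replicate 3 was the lowest VNS20_1w library for 15 of the 19.

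Of 39 hepatocyte markers in the table, 30 passed the filter on low values and 13 rose. Of the 30, 17 were not called, and 29 had a positive and 1 a negative fold change. Some already present in AB_Implant changed little or were lower. Means in AB_Implant and VNS20_1w were 5.91 and 6.74 CPM for Ahsg, 1.61 and 1.74 CPM for Trf and 3.52 and 2.21 CPM for Ass1. Markers at 0 in the unstimulated hearts could pass that filter only through stimulated groups, so the share of the 30 that rose is not read further. With no filter all 39 were tested, and 16 rose and 0 fell, beside 26 higher and 48 lower among all 17238 genes of that fit. In AB_Implant, 16 of the 39 had 0 counts in every library. The summed level of the 39 was 18.2, 15.9 and 13.8 CPM in AB_Implant and 145, 130 and 84.2 CPM in VNS20_1w. Alb ranged from 9.18 to 76.6 CPM in the 9 libraries of the other stimulated groups and reached at most 1.18 CPM in the 9 unstimulated libraries. Where the transcripts came from was not tested. The 13 hepatocyte calls became 7 without AB_Implant replicate 1 and 6 without AB_Implant replicate 3, and 11 to 13 without any other of the 6 libraries. Alb, Gc, Cyp3a11, Cyp2c29, Fabp1 and Kng1 were called in each of the 6 fits without 1 library.

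**Figure D5:**
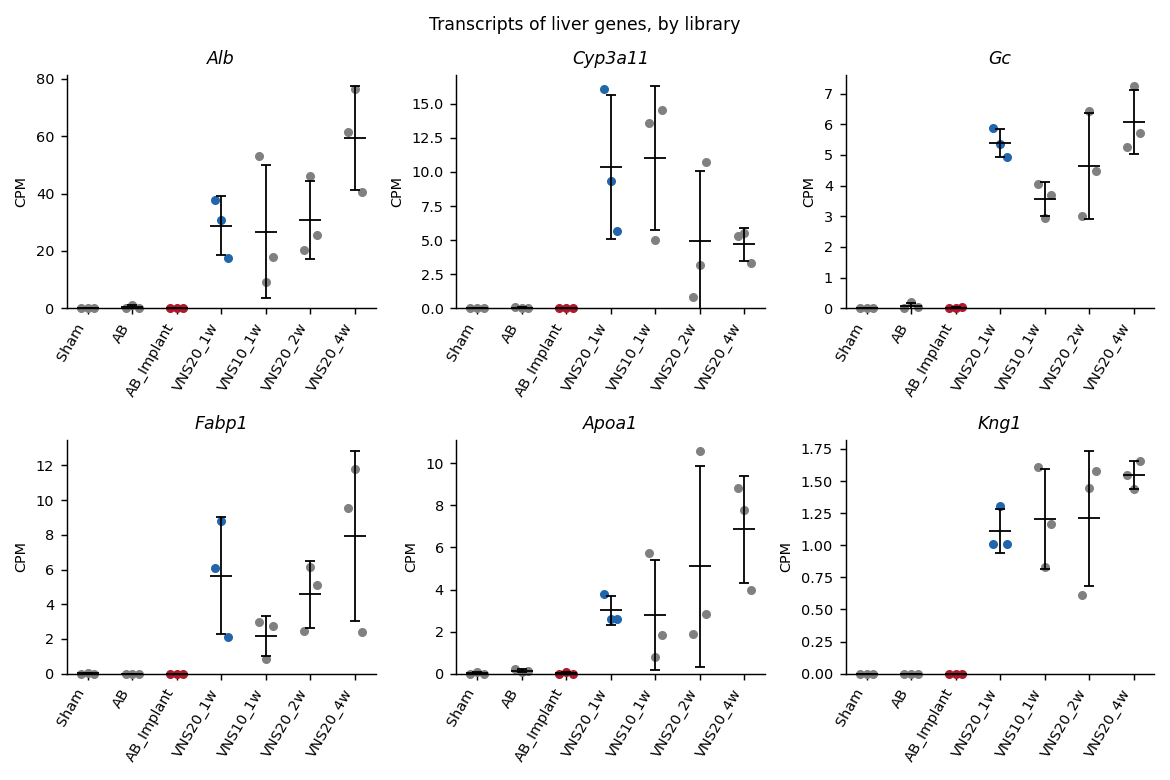
CPM of 6 liver genes by library, with the mean and SD of 3 libraries; AB_Implant is red, VNS20_1w blue and the other groups grey. The 9 unstimulated libraries lie at or near 0 and the 12 stimulated libraries above them, from 9.18 CPM upwards for Alb.

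Genes through which the vagus is known to act on the heart did not pass. Of 12 cholinergic and vagal signalling genes tested, 0 were called in either direction and the median was 0.07. Chrm2, the M2 receptor gene, was at 2.86, 2.72 and 4.64 CPM in AB_Implant and at 1.83, 16.6 and 1.21 CPM in VNS20_1w (0.95 ± 1.04, adjusted p = 0.941). One library, VNS20_1w replicate 2, was high, and without it the fold change was -1.15. Kcnj5, a subunit of the potassium channel that acetylcholine opens, had the same form at 2.40, 4.84 and 4.31 CPM against 3.16, 16.8 and 2.82 CPM (0.99 ± 0.82, adjusted p = 0.88). That replicate also had the highest length slope of the 6 libraries, and the part of the slope in these values was not tested. Adrb1, the main cardiac beta receptor, was at 1.53, 3.93 and 1.45 CPM against 1.96, 1.93 and 1.51 CPM (-0.33 ± 0.49, adjusted p = 0.969), and 0 of 19 adrenergic genes passed (median -0.0012).

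Lists of contraction and metabolism gave no call either. Atp2a2, the pump that returns calcium to the sarcoplasmic reticulum, was at 4960, 5933 and 4978 CPM against 5110, 8154 and 4767 CPM (0.18 ± 0.30, adjusted p = 0.972), one of 20 calcium handling genes (median 0.04). Jph2, which couples the surface and the reticulum, had the smallest p of that list (-0.97 ± 0.23, adjusted p = 0.0652). The 33 nuclear genes for respiratory chain subunits and citric acid cycle enzymes (30 with a positive fold change, median 0.23), 29 genes of fatty acid use (median 0.21), 23 of glycolysis (0.01) and 36 ribosomal protein genes (33 positive, median 0.23) had 0 calls. Of the fatty acid genes 24 were positive and 5 negative. The negative ones included Pdk4 (-3.26 ± 0.91, adjusted p = 0.17), Angptl4 (-3.04 ± 0.89, adjusted p = 0.186) and Ppargc1a (-1.95 ± 0.89, adjusted p = 0.532). All 13 mitochondrially encoded genes had positive fold changes with a median of 0.84 and 0 calls. The mitochondrial share was 49.5%, 39.7% and 55.3% in VNS20_1w and 37.6%, 44.4% and 34.4% in AB_Implant, and its part in these values was not tested.

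Inflammatory and immune lists gave no call. They held 10 tested genes of the IL-6 family and injury response (median -0.17), 12 cytokine and chemokine genes (0.34) and 21 of interferon and antigen presentation (0.23). Summed macrophage markers were at 158, 248 and 201 CPM in AB_Implant and 191, 186 and 276 CPM in VNS20_1w. Neutrophil markers were at 9.25, 5.44 and 4.68 CPM against 3.60, 46.6 and 12.9 CPM, so replicate 2 of VNS20_1w stood out, and S100a9, a neutrophil calcium-binding protein, was at 3.99, 2.42 and 1.78 CPM against 1.64, 19.2 and 7.56 CPM (1.80 ± 0.80, adjusted p = 0.508). Red blood cell markers were highest in VNS20_1w replicate 3, at 2074 CPM against 357 to 808 CPM in the other 5 libraries. Smooth muscle and pericyte markers did not overlap, at 303, 320 and 296 CPM against 455, 431 and 398 CPM, with 11 of 11 fold changes positive (median 0.40) and 0 called.

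The 10 min group sets a shorter daily session beside VNS20_1w over the same 7 weeks. Between VNS20_1w and VNS10_1w, 12 genes (0.0992%) were called, 10 lower (0.0826%) and 2 higher in VNS20_1w. Cebpb was at 31.4 to 66.1 CPM in VNS10_1w, overlapping the 22.3 to 65.8 CPM of AB, and 0.187 to 1.58 CPM in VNS20_1w (-5.86 ± 0.86, adjusted p = 0.00851). Hnrnpa0 was at 32.4 to 38.1 CPM in VNS10_1w (-3.34 ± 0.42, adjusted p = 0.00271) and Mrfap1 at 34.0 to 48.9 CPM (-1.66 ± 0.24, adjusted p = 0.00851). Hspa1a lay between the groups at 7.44 to 18.8 CPM (-4.25 ± 0.77, adjusted p = 0.0379). Nrp1 was at 28.5 to 35.7 CPM in VNS10_1w, beside AB_Implant, and was higher in VNS20_1w (0.97 ± 0.18, adjusted p = 0.0379). Of the 34 falls, the VNS10_1w mean lay nearer to AB_Implant for 24 and nearer to VNS20_1w for 10, a count that was not made over all genes tested. With the replicate number as a block, fitted over all 7 groups, 6 genes were called, 5 of them among the 12 (Cebpb, Hnrnpa0, Mrfap1, Gm9887 and C3ar1). The other 7 of the 12 were not: Eid2b (adjusted p = 0.0514), Pabpn1, Nudt3 and BC029722 (0.0587 each), Hspa1a (0.0594), Nrp1 (0.072) and Scand1 (0.102). In a fit of the 2 groups alone, and without VNS20_1w replicate 2 or 3, 0 genes were called with edgeR, and without VNS10_1w replicate 1, 2 or 3 there were 6, 4 and 5. DESeq2 called 56. In the main edgeR fit, 549 of the 12100 genes tested had an unadjusted p under 0.05.

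Later starts of the same session length were set beside VNS20_1w as well. Against VNS20_2w 0 genes were called with edgeR, with 421 of the 12100 tested at an unadjusted p under 0.05. Cebpb in VNS20_2w was low as well, at 0.913 to 4.18 CPM. Against VNS20_4w 2 genes (0.0165%) were called, Hnrnpa0 (-2.57 ± 0.41, adjusted p = 0.0363) and BC029722 (-1.98 ± 0.31, adjusted p = 0.0363), both lower in VNS20_1w. In that edgeR comparison 1973 of the 12100 tested had an unadjusted p under 0.05, so few calls do not mean that the groups were alike. Against the shared AB_Implant libraries, VNS10_1w had 19 called genes (0.157%), 6 of them lower (0.0496%) and 13 higher (0.107%). VNS20_2w had 5 lower (0.0413%) and 16 higher (0.132%), and VNS20_4w had 9 lower (0.0744%) and 30 higher (0.248%). In the same comparisons Cebpb had a log2 fold change of -3.96 in VNS20_2w (adjusted p = 0.038), of -1.96 in VNS20_4w without passing (adjusted p = 0.152) and of 0.30 in VNS10_1w (adjusted p = 1.00). For Hspa1a the same values were -3.31 (adjusted p = 0.0504), -4.79 (adjusted p = 0.0056) and -1.69 (adjusted p = 0.51).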

How the data were processed

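Messenger RNA of 21 mouse left ventricle libraries was deposited as 1 table of whole-number counts per gene. The deposited name speaks of normalized counts, but column totals differ, so the values were read as raw counts. Per the submitters' processing notes, FastQC 0.11.9, cutadapt 1.11, HISAT2 2.1.0, featureCounts 1.6.0 and edgeR 3.32.1 were used with GRCm38/mm10, and the strand setting is not given in the sources used here. Of 22136 genes, the 12100 with at least 1 CPM in 3 or more libraries were tested with edgeR 4.0.16 (R 4.3.3), using TMM scaling and the quasi-likelihood test over all 7 groups with no covariate. Adjusted p-values are Benjamini-Hochberg over all tested genes, called under 0.05. The SE beside a log2 fold change was derived from the test, as its absolute value over the square root of the quasi-likelihood F statistic. DESeq2 1.42.0, other filters and scalings, sample weights, length and GC terms, a replicate block and leaving out libraries were alternatives. The scripts were tested on simulated data. Same-numbered libraries of VNS20_1w and VNS10_1w had correlated deviations (r of 0.32, 0.78 and 0.30), so the block is given there. It was fitted over all 7 groups, and same-numbered libraries of VNS20_1w and AB had r of -0.10, -0.58 and -0.49. Replicate 3 of VNS20_1w matched another VNS10_1w library better. The replicate 2 libraries, at 0.78, had high length slopes (0.426 and 0.420). The labels do not say whether the numbers pair samples, and these correlations do not settle it. Libraries were grouped by their labels. The members and gene lists were chosen with earlier results of these data known. Named genes were called genes that have a proper symbol, 12 fixed heart genes and up to 4 genes of each list by smallest p. Hspb1, Dnaja1, C3ar1, Eid2b and the called clone or predicted genes fall outside that rule and were chosen after their values were seen.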

Additional observations from a re-analysis of the deposited data

Results flagged for a closer look

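Between stimulated groups that shared the start week and differed in session length, 12 genes (0.0992%) were called. The 10 with a symbol of their own follow, beside Gm9887 (log2 difference -5.55) and BC029722 (-1.84). VNS20_1w was lower than VNS10_1w in Hnrnpa0 (log2 difference -3.34), Pabpn1 (-3.00), Nudt3 (-4.97), Hspa1a (-4.25), Scand1 (-5.62), Cebpb (-5.86), Mrfap1 (-1.66) and Eid2b (-3.12), and higher in Nrp1 (0.97) and C3ar1 (2.01), each by edgeR's test of the difference itself. Of these 10, Hnrnpa0, Cebpb, Mrfap1 and C3ar1 were called with the replicate number as a block. The other 6 of the 10 were not, with adjusted p from 0.0514 for Eid2b to 0.102 for Scand1. In a fit of the 2 groups alone, and without VNS20_1w replicate 2 or 3, edgeR called 0 genes. DESeq2 on all libraries called 56. In the main edgeR fit, 549 of the 12100 genes tested had an unadjusted p under 0.05. Between the 20 min groups that started in week 1 and week 4, Hnrnpa0 differed by -2.57 and BC029722 by -1.98. In that comparison 1973 of the 12100 genes tested had an unadjusted p under 0.05 with edgeR.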

How the results depend on the processing

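VNS20_1w against AB_Implant called 56 genes. It called 190 with DESeq2, 24 at a mean of at least 5 CPM, 2066 with sample weights, 480 with the length slope as covariate, 107 with length and GC offsets, 31 with the replicate block, 15 in a fit of the 2 groups alone, and 12 to 101 without 1 replicate. With the block Serpinh1 (adjusted p = 0.103), Irx4 (0.0963) and Alox12 (0.06) were not called, nor was Nrp1 with block and offsets (0.108). Same-numbered libraries did not deviate together (r of 0.14, -0.23 and -0.46). A fit of the 2 groups with both offsets, chosen after seeing the data, called 45. VNS20_1w against AB called 35, and 86, 13 (5 CPM), 127 (slope), 13 (replicate block, with or without offsets), 10 (alone) and 10 to 20 without 1 replicate. AB_Implant against AB called 0, and 70, 1, 11 (weights), 45, 4 (alone) and 0 to 3. VNS20_1w against VNS10_1w called 12, and 56, 4, 1994 (weights), 142, 26 (offsets), 6 (replicate block), 0 (alone) and 0 to 12. Hspa1a, Hspa1b, Cebpb, Hnrnpa0 and Alb were called under all 18 alternatives. Signs turned for genes that were not called: with sample weights Atp2a2 was at -0.013, Chrm2 at -0.77, Kcnj5 at -0.00539, S100a9 at -0.51 and Adrb1 at 0.077. Without 1 replicate the range was -0.94 to 0.13 for Myh7 (positive without AB_Implant replicate 3) and -0.59 to 0.28 for Adrb1 (positive without AB_Implant replicate 2). It was -0.10 to 0.32 for Atp2a2, -1.15 to 1.43 for Chrm2, -0.36 to 1.37 for Kcnj5 and -0.40 to 0.98 for Kcnj3, negative in all 4 without VNS20_1w replicate 2. The cause was not tested. Genes near 1 CPM rest on few counts, and 3 libraries a group limit the precision.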
